A study of Mus musculus with 6 samples.

Results

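The genes of the constitutive proteasome were followed in sorted tumour-associated dendritic cells of mice with ID8-based ovarian tumours and ascites, with and without XBP1. ID8 is an ovarian cancer line of the mouse that forms tumours and ascites in the abdomen. Members were the rows of the deposited count table whose symbol begins with Psm, a letter from a to g and a number, leaving out the immunoproteasome genes Psmb8, Psmb9 and Psmb10. This gave 46 of 23225 genes: 16 of the core, 20 of the lid and base, 4 activators, 5 assembly factors, and Psmc3ip, which matched by name only, since its protein acts in meiotic recombination and is no part of the proteasome. All 46 were among the 15958 genes with enough counts to be tested. The mice were C57BL/6 and tumours were taken at day 23. The WT group was 3 libraries from wild-type mice and the XBP1-KO group 3 libraries from conditional knockouts that lack XBP1 in their CD11c-positive cells, so that other cells of the host keep the gene. The labels do not name the Cre line or the sort gate and, though RNA was isolated separately for each library, leave it unsaid whether each is another animal. P-values therefore measure only the spread among these libraries, which may be technical. The count columns carry no replicate number, and the letters a, b and c are only names.

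Libraries held between 26946349 and 32709100 counts. Xbp1 itself had 67.2, 48.7 and 76.8 CPM in WT a, b and c and 32.5, 30.9 and 40.4 CPM in XBP1-KO a, b and c, so that the genotypes did not overlap (edgeR's quasi-likelihood test, adjusted p = 0.0545). The deleted part of the gene is not stated, and counts over the whole gene include any exons that remain. CPM is the count of a gene scaled to a common library total, here and in all that follows after TMM scaling. On the first principal component (33.3% of the variance) WT a, b and c lay at -31.6, 7.92 and -55.5. XBP1-KO a, b and c lay there at 28.1, 36.2 and 14.7, above every WT library. On the second principal component (22.7%) WT b and XBP1-KO b lay at 37.6 and 28.7. WT a, WT c, XBP1-KO c and XBP1-KO a lay at -2.91, -0.878, -20.9 and -41.5, so that XBP1-KO a was the farthest from 0. WT b and XBP1-KO b were picked as the WT and the XBP1-KO library with the widest gap to the rest on the second component. Values without these libraries are given where they change a result. Dendritic cell genes were abundant. Cd74, the MHC class II invariant chain, lay between 56672 and 99893 CPM. H2-Aa, a chain of MHC class II, lay between 9593 and 15567 CPM. Itgax, the gene of CD11c, had 109, 94.3 and 106 CPM in WT a, b and c. In XBP1-KO a, b and c it had 143, 161 and 133 CPM, higher without overlap. By the same test Itgax differed by 0.50 on the log2 scale (SE 0.13, adjusted p = 0.106). Flt3, a growth factor receptor of the lineage, had 15.9 to 50.4 CPM. Zbtb46, a transcription factor of conventional dendritic cells, had 8.51 to 8.92 in WT and 6.88 to 8.16 CPM in XBP1-KO. It was lower without overlap (-0.23, SE 0.21, adjusted p = 0.682). The macrophage genes Csf1r and C1qb were also present, at 439 to 644 CPM and 2250 to 3663 CPM.

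The proteasome degrades proteins that carry ubiquitin chains. Its core is a barrel of stacked rings of alpha and beta subunits, and the beta subunits encoded by Psmb5, Psmb6 and Psmb7 hold the active sites. The regulatory particle caps the barrel: a base with a ring of ATPases unfolds the substrate and a lid removes its ubiquitin. Activators of the PA28 and PA200 type can take the place of this cap, and dedicated chaperones put the particles together. In antigen-presenting cells the proteasome also cuts the peptides for MHC class I, and interferon replaces the catalytic subunits by those of the immunoproteasome. Proteins drawn out of the ER for disposal end at the proteasome, and XBP1 is known as a driver of genes of that ER pathway. The transcription factor NFE2L1, which binds antioxidant response elements, is known to raise proteasome genes together when proteasome activity falls.

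Because XBP1 was deleted and NFE2L1 is the known regulator, the promoters of the members were searched for the core of each factor's motif. The windows came from RefSeq on GRCm38.p6 and ran from 250 bases before to 50 after the start of the gene. They were available for 38 of the 46 members, as 41 promoters. TGACGTG, the core of XBP1-type elements, was present on either strand in 1 of the 41 promoters (2.44%), that of Psma1, against 2.01% of all 32851 promoters. TGACNNNGC, the antioxidant core, was in 6 of 41 (14.6%) against 12.4% of all promoters, in Psmb5, Psmb6, Psmc6, Psmd12, Psmd9 and Psme4. CCAAT was in 14 of 41 (34.1%) against 37.4%. In no member did a TGACGTG overlap a TGACNNNGC. A match in letters is a description and no sign of binding. Below are the match of Psma1 and those of the catalytic subunits Psmb5 and Psmb6, 5′ to 3′ on the strand of the gene, with the motif in capitals.
Psma1, minus strand of chr7:114276255-114276291: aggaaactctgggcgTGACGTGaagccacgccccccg
Psmb5, minus strand of chr14:54618019-54618057: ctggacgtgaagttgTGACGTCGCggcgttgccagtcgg
Psmb6, plus strand of chr11:70525333-70525356: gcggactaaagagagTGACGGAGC
The motif begins 160 bases before the RefSeq start in Psma1, 47 before it in Psmb5 and 9 before it in Psmb6.

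Together the 46 genes took 0.672% to 0.693% of the counts in WT libraries and 0.703% to 0.77% in XBP1-KO libraries, without overlap. Their summed level was 7058 ± 397 in WT and 7190 ± 445 CPM in XBP1-KO (SD, n = 3 each). The core made 3333 ± 290 CPM of this in WT and 3520 ± 212 CPM in XBP1-KO. The lid and base made 2652 ± 91.2 in WT and 2550 ± 233 CPM in XBP1-KO. Activators summed to 928 ± 53.3 and 957 ± 37 CPM, and assembly factors to 140 ± 11.2 and 157 ± 2.39 CPM. In each of these 4 sums of TMM-scaled CPM the ranges of the genotypes overlapped, except for assembly factors. There every XBP1-KO library (154 to 159 CPM) lay above every WT library (127 to 147 CPM). The overlap depended on the scaling. As shares of counts, the core had 0.314% to 0.335% in WT and 0.348% to 0.368% in XBP1-KO, without overlap. Activators had 0.0858% to 0.0933% in WT and 0.0976% to 0.099% in XBP1-KO, also without overlap. The shares of the lid and base overlapped.

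**Figure D1:**
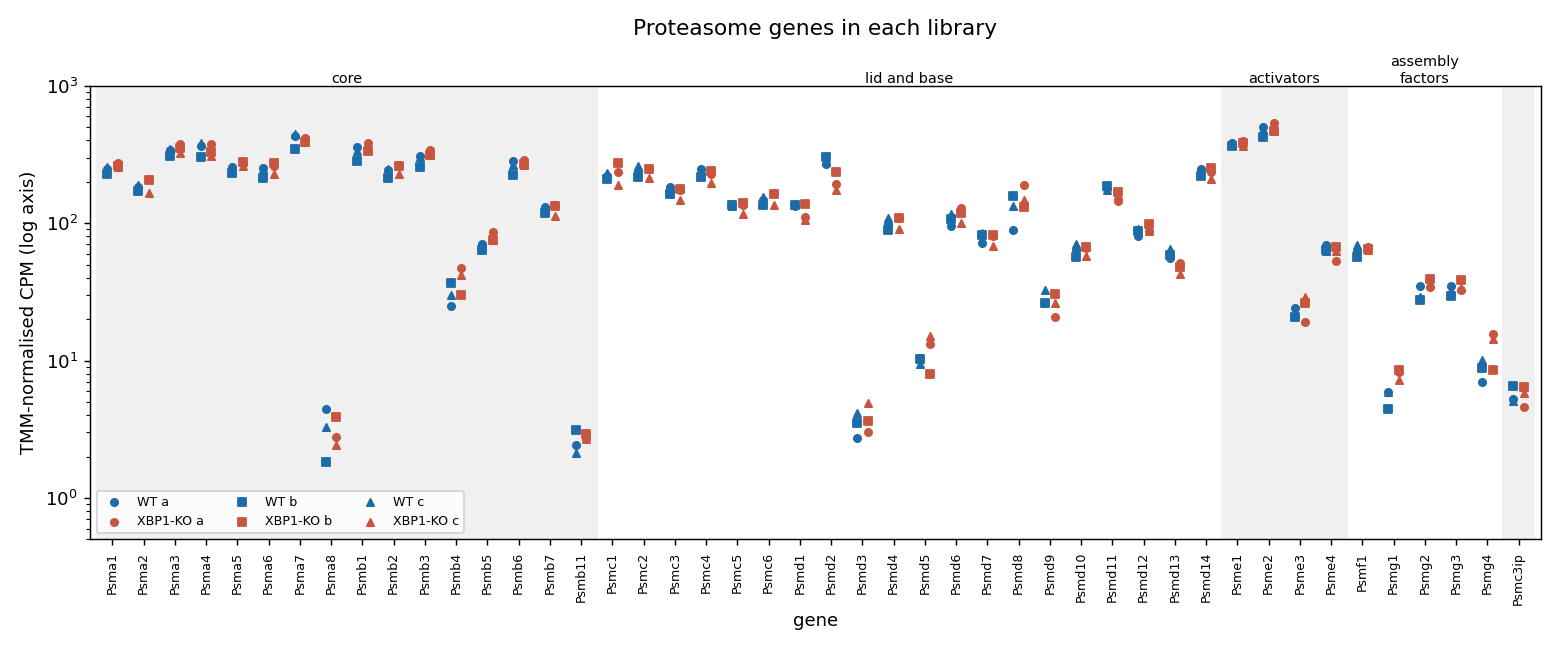
TMM-normalised CPM on a log axis of each of the 46 genes in each library, with WT in blue and XBP1-KO in red, by class. The points of the genotypes lie close together for most genes, while Psma8, Psmb11 and Psmd3 lie below 5 CPM in every library.

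Levels of different genes were compared per kb of the longest protein-coding transcript in GENCODE M21. Among the 14 standard core subunits, Psma1 to Psma7 and Psmb1 to Psmb7, the WT median was 201 CPM per kb. The highest was Psmb3, a structural beta subunit, at 376 ± 37.3 CPM per kb, and the lowest Psmb4, also structural, at 25.8 ± 5.16 CPM per kb (SD, n = 3). Subunits stand in equal numbers in the particle, whereas the levels of these transcripts differed by more than the spread between libraries. The 3 catalytic genes differed too, with Psmb6 at 322 ± 35.5, Psmb7 at 109 ± 5.67 and Psmb5 at 75 ± 4.28 CPM per kb in WT. Psmb6 lay above Psmb7, and Psmb7 above Psmb5, by more than these SDs. Lengths of the transcripts actually used in these cells are not known, which limits such comparisons. Near-identical pseudogene copies, 1 of Psmb5 and 3 of Psmb3, limit them too, since their reads may be hard to tell apart. The SD between libraries does not cover an error that all libraries share.

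The ATPases of the base had 65.6 (Psmc6) to 162 (Psmc4) CPM per kb in WT with a median of 119, below the core median. Of the lid, Psmd14, the deubiquitinating enzyme, was the highest at 154 ± 10.1 CPM per kb and Psmd3, a structural subunit, the lowest at 1.61 ± 0.332 CPM per kb. Psmd3 had only 77, 100 and 124 counts in WT a, b and c and 82, 107 and 163 counts in XBP1-KO a, b and c, while the other 7 lid genes had at least 1403 counts in every library. Whether this row holds all reads of Psmd3 was not tested. Of the activators, Psme2 and Psme1, which form the interferon-inducible PA28 ring, lay at 485 ± 44.3 and 337 ± 5.96 CPM per kb in WT. Psme3, the nuclear PA28 subunit, and Psme4, PA200, lay at 8.32 ± 0.671 and 10 ± 0.547 CPM per kb. The core chaperones had 5.19 (Psmg1) to 36.4 (Psmg3) CPM per kb. Psma8, the testis alpha subunit, and Psmb11, the catalytic subunit of thymic epithelium, were near the floor of the set at 1.88 ± 0.772 and 0.606 ± 0.122 CPM per kb.

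**Figure D2:**
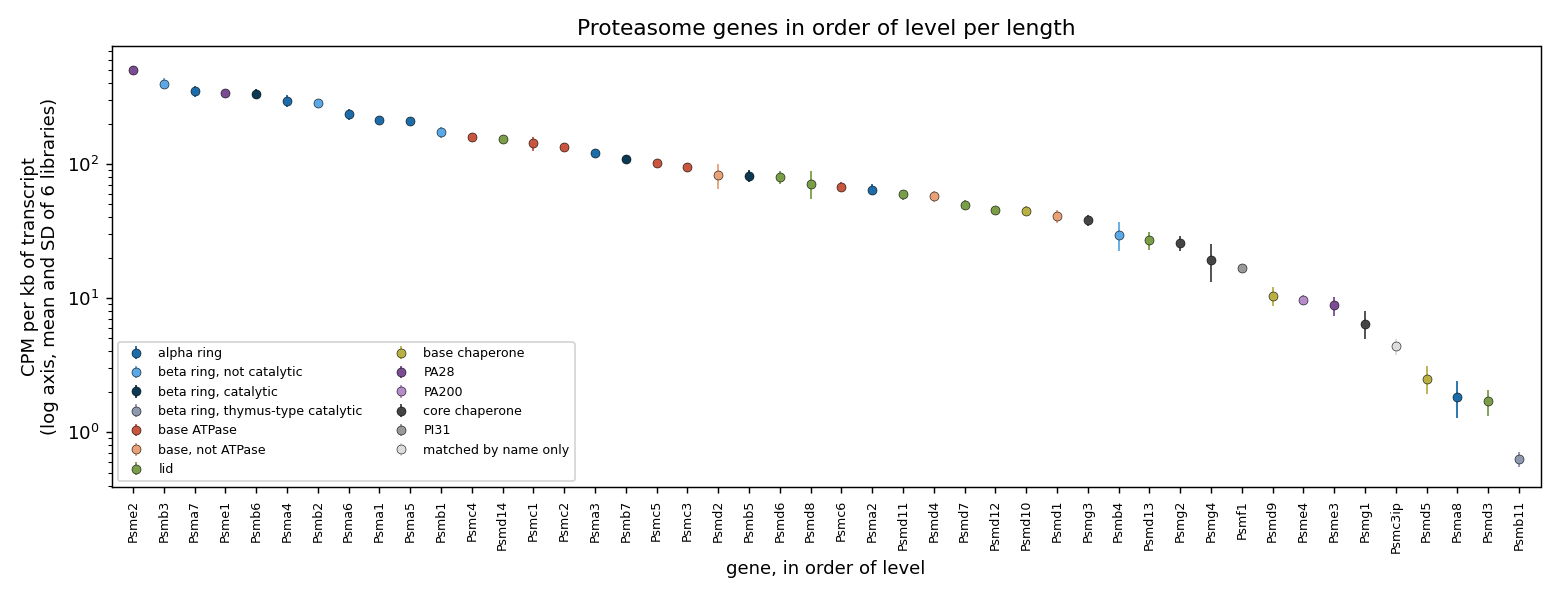
CPM per kb of transcript on a log axis, as the mean and SD of all 6 libraries, for the 46 genes in order of level and coloured by their place in the particle. Psme2 leads at 498, the genes ahead of Psmc4 are core and PA28 subunits, and Psmd5, Psma8, Psmd3 and Psmb11 close the order below 3.

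With XBP1 removed from CD11c-positive cells, the genotypes were compared for transcripts of the machinery that ends ER-associated degradation. By edgeR's quasi-likelihood test, none of the 46 members passed the adjusted threshold of 0.05, against 0.445% of all genes tested (0.157% higher and 0.288% lower in XBP1-KO). DESeq2 and limma-voom also called 0 of 46, against 463 and 47 of all 15958 genes. The smallest adjusted p of a member by DESeq2 was 0.0519, for Psmd2. At an unadjusted p under 0.05 there were 4 members, 8.7% of them, against 12.9% of all genes. Psmd2 and Psmd13 were on the lower side, where 8.26% of all genes lay, and Psmg1 and Psmg4 on the higher side, where 4.59% lay. Of the 46, 30 had a log2 fold change above 0 (65.2%, against 56.1% of all genes, with 43.9% below 0) and the median was 0.07, against 0.06 over all genes tested. Without WT b 22 of 46 lay above 0, and without WT b and XBP1-KO b 18. Fold changes ran from -0.50 to 0.57, and 37 of 46 lay within 0.2 of 0. Standard errors had a median of 0.13. In simulated libraries of this design 2% of 100 genes with a 1.41-fold change were called and 64% of 100 with a 2-fold change. The changed genes were drawn from all genes with enough counts, not from the members. The median SD of log2 CPM within a genotype was 0.29 over all genes tested. It was 0.13 over the core and 0.14 over the lid and base. The shares called at the spread of the members were therefore not measured.

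**Figure D3:**
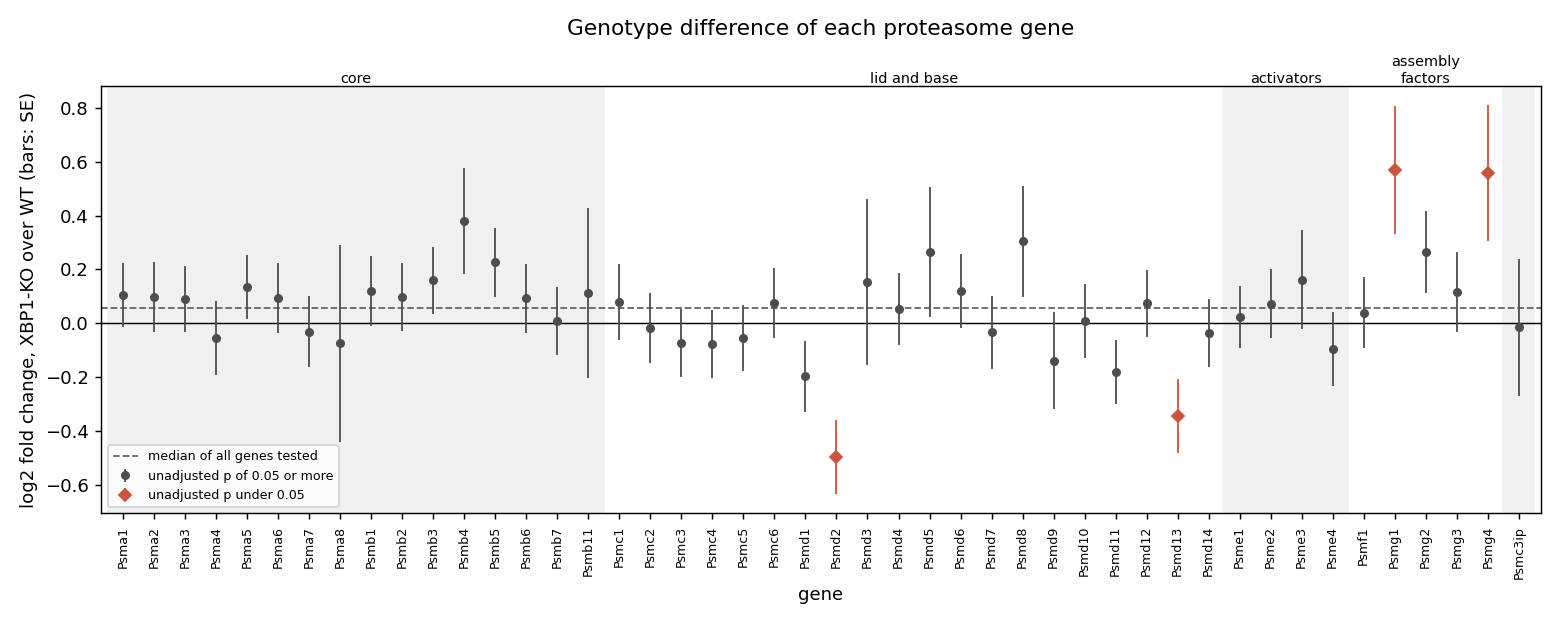
Log2 fold change of XBP1-KO over WT with its SE for each of the 46 genes, and the median of all genes tested as a dashed line. Red diamonds mark Psmd2, Psmd13, Psmg1 and Psmg4, the 4 genes with an unadjusted p under 0.05, and most others lie within 0.2 of 0.

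Of the 16 core genes, 13 had a fold change above 0 and none passed, with a median of 0.10 and a range of -0.07 to 0.38. Without WT b the median was 0.0069. Psma1, an alpha subunit, had 249, 227 and 257 CPM in WT a, b and c and 273, 262 and 254 CPM in XBP1-KO a, b and c, and the ranges overlapped (log2 fold change 0.11, SE 0.12, adjusted p = 0.743). Psmb5, the chymotrypsin-like subunit that bortezomib blocks, had 71.1, 63.4 and 67.8 in WT and 85.7, 75.8 and 75.2 CPM in XBP1-KO. Every XBP1-KO library lay above every WT library, yet the difference of 0.23 (SE 0.13) did not pass (adjusted p = 0.488). A processed pseudogene, Gm3375, matches its transcript at 98.9% identity, so that reads of the pair may be hard to tell apart. Psmb6, the caspase-like subunit, had 281, 226 and 265 in WT and 289, 271 and 263 CPM in XBP1-KO (0.09, SE 0.13, adjusted p = 0.793). Psmb7, the trypsin-like subunit, had 131, 119 and 129 in WT and 134, 133 and 112 CPM in XBP1-KO, with a difference of 0.01 (SE 0.13, adjusted p = 0.981). Both overlapped between the genotypes.

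Psmb4, the structural subunit with the lowest level per kb, had the smallest p of the core. Its values were 24.8, 37 and 30 CPM in WT a, b and c and 47.5, 30.1 and 41.8 CPM in XBP1-KO a, b and c, which overlap (0.38, SE 0.20, adjusted p = 0.451). Psmb3 had 308, 255 and 300 in WT and 341, 311 and 312 CPM in XBP1-KO, without overlap (0.16, SE 0.13, adjusted p = 0.625). It has 3 near-identical pseudogene copies, at 96.3% to 97.1% identity. The third core gene whose genotypes did not overlap was the alpha subunit Psma5, with 230 to 258 in WT and 259 to 278 CPM in XBP1-KO. Psma5 has 2 such copies, at 97.5% and 98.6% identity. The testis and thymus subunits stayed low in both genotypes: Psma8 had 1.84 to 4.45 CPM over the 6 libraries and Psmb11 2.14 to 3.15 CPM.

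In the lid and base, 9 genes had a fold change above 0 and 11 below, none passed, and the median was -0.03, which became 0.06 with library size alone as the scale. The 6 ATPases of the base lay between -0.08 and 0.08. Psmc1 had 221, 210 and 232 CPM in WT a, b and c and 237, 272 and 191 CPM in XBP1-KO a, b and c, so that the highest and the lowest value both came from XBP1-KO libraries (0.08, SE 0.14, adjusted p = 0.846). Psmc4, the highest of them per kb in WT and over all libraries, had 247, 216 and 239 in WT and 229, 238 and 197 CPM in XBP1-KO (-0.08, SE 0.13, adjusted p = 0.831).

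Psmd2, the largest difference downward of all 46, encodes the base subunit Rpn1, a scaffold that docks ubiquitin-like shuttle proteins and the deubiquitinase Usp14. It had 270, 305 and 279 CPM in WT a, b and c and 194, 236 and 175 CPM in XBP1-KO a, b and c. Each XBP1-KO library lay below each WT library. The difference was -0.50 on the log2 scale (SE 0.14), 29.1% less in XBP1-KO, with an unadjusted p of 0.00312 and, after adjustment over all genes, 0.129. Without XBP1-KO b it was -0.64 and passed (adjusted p = 0.0486), in a fit that called 154 of 16304 genes. Over all alternatives the adjusted p ran from 0.0486 to 0.373. The transcript of a pseudogene, Gm5422, is 96.4% identical to that of Psmd2. Psmd1, Rpn2 and the other large scaffold of the base, had 132, 136 and 138 in WT and 111, 138 and 105 CPM in XBP1-KO, where 2 of 3 libraries lay below WT (-0.20, SE 0.13, adjusted p = 0.573). Psmd4, the ubiquitin receptor Rpn10, had 89.4 to 109 in WT and 91.1 to 109 CPM in XBP1-KO.

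Of the lid, Psmd13, the subunit Rpn9, had 56.2, 58.9 and 65.2 in WT and 51.5, 48 and 42.6 CPM in XBP1-KO, without overlap. Its log2 fold change was -0.34 (SE 0.14), with an unadjusted p of 0.0265 and an adjusted p of 0.307. An exon of Psmd13 overlaps one of Sirt3 on the other strand, and the strand setting of the counts is not given in the sources used here. Sirt3 had 12.7 to 17.6 in WT and 13.3 to 23 CPM in XBP1-KO. Psmd11, the subunit Rpn6, had 178.1, 186 and 174 in WT and 146, 170 and 159 CPM in XBP1-KO, also without overlap (-0.18, SE 0.12, adjusted p = 0.567). The transcript A730017L22Rik is 97.9% identical to part of Psmd11 in the opposite direction, and its own row had 58.1, 81.4 and 50.1 in WT and 69.9, 90.7 and 65.9 CPM in XBP1-KO. With that row added, a step chosen after seeing the data, Psmd11 had 224 to 268 in WT and 216 to 260 CPM in XBP1-KO, and the genotypes overlapped. Psmd14 had 220 to 248 in WT and 208 to 253 CPM in XBP1-KO, and Psmd3 2.72, 3.54 and 4.14 in WT and 3, 3.61 and 4.95 CPM in XBP1-KO. The chaperones of the base, Psmd5, Psmd9 and Psmd10, overlapped between the genotypes. Over all members, 4 of 46 lay higher without overlap (8.7%, against 8.80% of all genes) and 3 of 46 lower (6.52%, against 10.4%), where 19.2% of all genes did not overlap in either direction.

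All 4 activators overlapped between the genotypes and none passed. Psme1 had 380, 367 and 377 CPM in WT a, b and c and 393, 382 and 366 CPM in XBP1-KO a, b and c (0.02, SE 0.12, adjusted p = 0.948). Psme2, its partner in the ring, had 504, 420 and 476 in WT and 534, 471 and 469 CPM in XBP1-KO (0.07, SE 0.13, adjusted p = 0.842). A transcript of Psme2b is 99.4% identical to Psme2 over the aligned part. Psme3 had 24.1, 20.6 and 21.7 in WT and 19.1, 26 and 29.2 CPM in XBP1-KO, where the lowest and the highest of the 6 libraries were both XBP1-KO (0.16, SE 0.18, adjusted p = 0.743). Psme4, an activator found in spermatogenesis and DNA repair, had 69.1, 63.2 and 62.7 in WT and 52.7, 67.3 and 62.7 CPM in XBP1-KO (-0.09, SE 0.14, adjusted p = 0.809). The count table also has a row under an older name of Psme4, mKIAA0077, with 70 to 130 counts, so the reads of this gene may be divided.

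The assembly factors all had a fold change above 0, with a median of 0.26, and none passed. The median was 0.17 without WT b, 0.37 without WT a and 0.13 without WT b and XBP1-KO b. Psmg1, which with Psmg2 forms a chaperone of the alpha ring, had 5.93, 4.42 and 5.91 in WT and 8.31, 8.6 and 7.25 CPM in XBP1-KO, without overlap. Its log2 fold change was 0.57 (SE 0.24), with an unadjusted p of 0.0314 and an adjusted p of 0.325. Psmg2 had 34.6, 27.5 and 29 in WT and 34.5, 39.1 and 35.8 CPM in XBP1-KO, with XBP1-KO a just below WT a (0.26, SE 0.15, adjusted p = 0.494). Psmg4, which pairs with Psmg3 in the second alpha ring chaperone, had 6.99, 8.88 and 10.2 in WT and 15.5, 8.53 and 14.3 CPM in XBP1-KO. Its difference of 0.56 (SE 0.25) had an unadjusted p of 0.046 and an adjusted p of 0.375, and XBP1-KO b lay among the WT libraries. Psmg3 had 29.3 to 34.9 in WT and 32.5 to 38.3 CPM in XBP1-KO. Psmf1, the proteasome inhibitor PI31, had 56.8 to 69.9 in WT and 63.5 to 66.9 CPM in XBP1-KO.

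Single libraries held the extreme values of whole groups of subunits. WT b held the lowest value of the 6 libraries for 12 of 16 core genes and for 4 of 5 assembly factors, and XBP1-KO a the highest for 10 of 16 core genes. XBP1-KO c held the lowest value for 11 of the 20 lid and base genes, among them all 6 ATPases. The ratio of the median level per kb of the 14 standard core genes to that of the 6 ATPases was 1.74, 1.67 and 1.68 in WT a, b and c and 1.84, 1.8 and 2.03 in XBP1-KO a, b and c. The XBP1-KO values lay above the WT values, which no test was made of. This ratio was not among the comparisons planned beforehand. The median level per kb of the 8 lid genes was 45, 58.7 and 57.1 in WT a, b and c. In XBP1-KO a, b and c it was 51.3, 55.9 and 50.3, so that the lid medians overlapped. A ratio of the core to the lid was not taken. Without WT b and XBP1-KO b the median fold change of the core was 0.0049 and that of the lid and base -0.12.

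**Figure D4:**
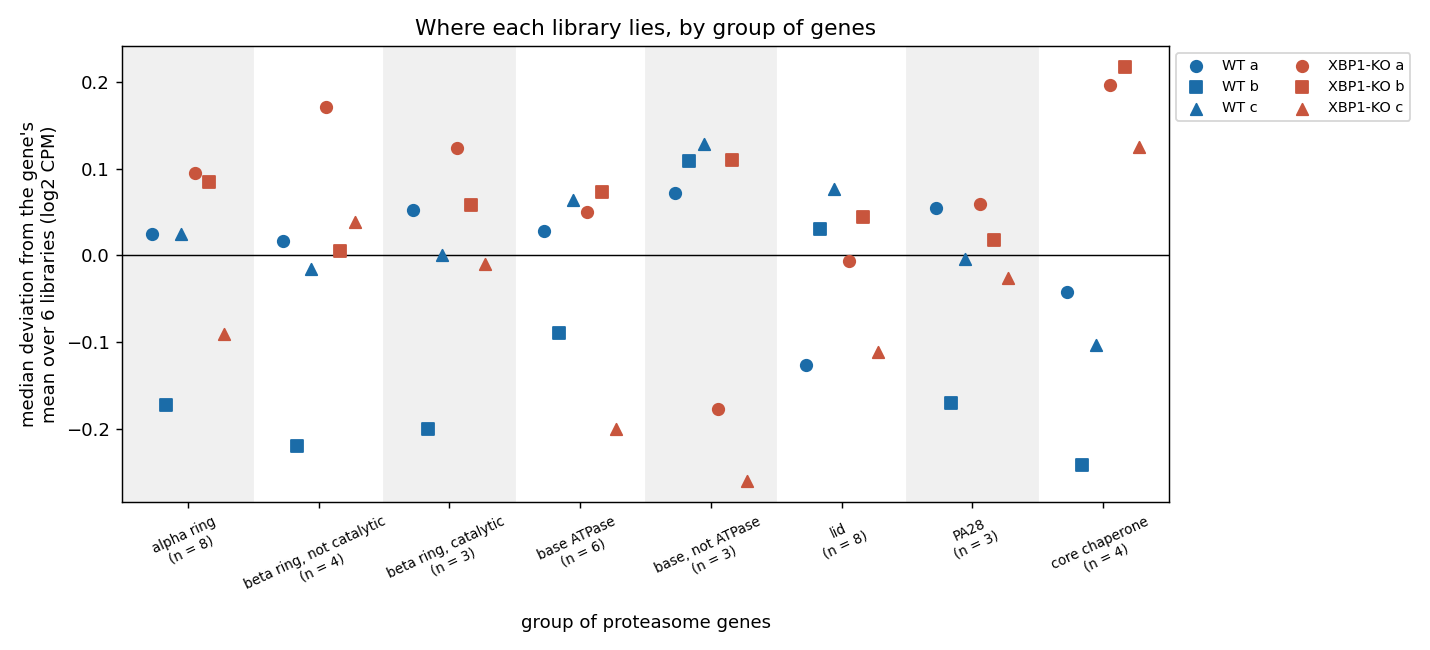
Median deviation of a group's genes from their own mean over 6 libraries, on the log2 CPM scale, for each library. WT b (blue square) lies lowest for the alpha and beta subunits at -0.17 to -0.22, XBP1-KO c (red triangle) lowest for the base ATPases at -0.20, and the 3 XBP1-KO libraries lie above WT for the core chaperones.

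Transcripts of the exchanged catalytic subunits were compared by the ratio of immunoproteasome to constitutive counts, which needs no scaling between libraries. The ratios are of RNA counts and not per length (Psmb8 1628 and Psmb5 899 bases). They serve only to compare the genotypes, and the exchange of subunits in the particle was not measured. Psmb8 counts were 2.81, 4.25 and 3.98 times those of Psmb5 in WT a, b and c and 3.58, 3.27 and 3.64 times in XBP1-KO a, b and c. Psmb9 was at 0.466, 0.546 and 0.462 times Psmb6 in WT and 0.426, 0.478 and 0.47 times in XBP1-KO. Psmb10 was at 1.27, 1.29 and 1.41 times Psmb7 in WT and 1.37, 1.36 and 1.52 times in XBP1-KO. The ranges overlapped in all 3 pairs. Log2 ratios differed by -0.05, -0.10 and 0.10 in that order, with p = 0.8, 0.6 and 0.3 in a two-sided exact permutation test, 0.8 each after adjustment over the 3 pairs, where 0.1 is the smallest p that 3 against 3 libraries allow. Without WT b the first difference was 0.06.

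The wider pathway was read from 4 lists, in which no gene passed, as no member did. Of 11 tested proteasome partners, 8 lay higher and 3 lower, with a median of 0.09. Zfand5, a proteasome-binding protein, had 49.1 to 77.1 in WT and 67.4 to 70 CPM in XBP1-KO, and Uchl5, a deubiquitinase of the base, 19.9 to 23.5 and 20.7 to 32.5 CPM. Of 10 genes listed for the control of proteasome genes, 4 lay higher and 6 lower (median -0.07). Whether a listed gene, Maf among them, controls the members in these cells was not tested. Maf, a bZIP transcription factor, had 131 to 172 in WT and 172 to 262 CPM in XBP1-KO, barely without overlap (0.44, SE 0.17, adjusted p = 0.28). Nfe2l1 had 21.2, 24.9 and 30.2 CPM in WT a, b and c and 18.3, 16.3 and 27.4 CPM in XBP1-KO a, b and c, with overlap (-0.30, SE 0.21, adjusted p = 0.598).

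Of the 4 tested genes of ubiquitin supply, 3 lay higher and 1 lower. Uba1, the main ubiquitin-activating enzyme, was the lower one, with 100.4 to 119 in WT and 81.6 to 99.9 CPM in XBP1-KO, just without overlap (-0.25, SE 0.13, adjusted p = 0.458). Rps27a, a ubiquitin fusion gene, had 540 to 715 in WT and 706 to 765 CPM in XBP1-KO. Of 10 genes of ubiquitin shuttles and the segregase, 5 lay higher and 5 lower (median -0.06). Vcp, the ATPase that pulls proteins out of the ER membrane and hands them to the proteasome, had 172, 275 and 222 in WT and 181, 164 and 175 CPM in XBP1-KO. The difference was -0.36 on the log2 scale (SE 0.16, adjusted p = 0.358), and WT a lay among the XBP1-KO libraries. Ubqln2, a ubiquilin shuttle, had 8.25 to 9.28 in WT and 10.4 to 13.2 CPM in XBP1-KO (0.37, SE 0.20, adjusted p = 0.47).

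Markers of other cell types were also summed in each library. The summed level of 14 T and NK cell markers was 158 to 169 in WT and 239 to 366 CPM in XBP1-KO. Of these markers 13 lay higher and 1 lower, and 3 of them, Nkg7, Cd3e and Ncr1, passed as higher. Cd4 was the lower one, with 4.92 to 6.45 in WT and 4.43 to 4.79 CPM in XBP1-KO, without overlap. By edgeR's test it did not pass (-0.31, SE 0.25, adjusted p = 0.628). Klrb1c and Cd2 had the highest means of that list over all 6 libraries, though Nkg7 lay above both in mean over XBP1-KO (69.4 CPM). Of 5 B cell markers the sum was 130 to 312 in WT and 336 to 487 CPM in XBP1-KO, with Cd79b and Ms4a1 at the highest levels and none passing (smallest adjusted p = 0.228). Of 4 neutrophil markers it was 45.4 to 161 and 233 to 327 CPM, with Retnlg and S100a8 the highest and again none passing (smallest adjusted p = 0.304). No listed marker in the table was at 0 in every library. Of the 10 macrophage markers and 13 dendritic cell markers the sums overlapped. Among the dendritic cell markers 3 lay higher and 10 lower in XBP1-KO, and none passed. Only Itgax lay higher without overlap, and only Zbtb46 lower. The sum of 7 division markers overlapped, at 356 to 548 in WT and 355 to 379 CPM in XBP1-KO, with Top2a and Ccnb1 the highest in mean over all 6 libraries. Top2a, a topoisomerase of dividing cells, had 138, 218 and 137 in WT and 103, 109 and 109 CPM in XBP1-KO, without overlap, and did not pass (-0.62, SE 0.17, adjusted p = 0.132). That of 7 epithelial markers, with Krt19 and Krt18 the highest, was 105 to 145 in WT and 91.5 to 163 CPM in XBP1-KO. In such bulk samples, fewer cells of a type and less RNA per cell cannot be told apart. The fold change also went with transcript length, with a Spearman correlation across genes of -0.32 over the 46 members and -0.19 over 12426 tested genes with a length. Genes share libraries and are not independent replicates. Psmd2, with the lowest fold change, has a transcript of 2961 bases, and Psmd5 (0.26, SE 0.24) has one of 4397 bases. These genes are examples and do not measure how close the relation is. The part of other cells or of length in the member values was not tested.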

How the data were processed

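RNA was sequenced from sorted tumour dendritic cells, 3 WT and 3 XBP1-KO libraries. The authors deposited whole-number counts per gene symbol, not normalised, and CPM for 13946 of the genes. RSEM, edgeR and mm9 are named, per the submitters' processing notes, with no version or role. Aligner, annotation and strand setting: not given in the sources used here. Deposited CPM equalled counts over the library total to within 5.09e-11.

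The tests used edgeR 4.0.16 (R 4.3.3) on the counts: filterByExpr, TMM scaling, glmQLFit with robust estimation, a two-sided quasi-likelihood F test, and Benjamini-Hochberg adjustment over 15958 genes, with calls under 0.05. The SE is the fold change over the square root of F. Alternatives were DESeq2 1.42.0, limma 3.58.1 (voom, and log2 of deposited CPM + 1 or + 0.1), other scalings and filters, and each library left out. The members, classes and lists were chosen with earlier results of these data known, so no set test was made. Of 104 listed genes, 93 matched by symbol and 5 by an older symbol in the RefSeq table. Text values were given for the catalytic subunits, Psma1, Psmc1, Psmd1, activators, the 3 smallest p-values of each class and the extremes per kb. Of each pathway list the 2 smallest p-values were given, and of each marker list the 2 highest levels and any call. Transcript lengths came from GENCODE M21 in place of RefSeq, whose table gives gene spans, and near-identical copies from blastn at 95% identity or more over at least 0.5 of the transcript. Chi-square per degree of freedom was 22.5 to 74.5 between libraries of 1 genotype, so none was a copy of another. At 26946349 to 32709100 counts a library, spread between libraries (common coefficient of variation 0.25) limits precision. Simulated counts for 15512 tested genes, 3 against 3, gave 6 false calls.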

Additional observations from a re-analysis of the deposited data

How the results depend on the processing

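Psmd2 was the only member called by any alternative: without XBP1-KO replicate b, where 1 member was lower, its value was -0.638 (adjusted p = 0.0486). That setting called 154 of 16304 genes. No member was called higher in any alternative. Leaving out each library in turn, members called lower ran from 0 to 1. The median of the assembly factors then ran from 0.171 to 0.366, and was 0.128 without WT b and XBP1-KO b. That of the lid and base ran from -0.0854 to 0.0297, was -0.122 without both, 0.0572 with library size alone, and 0.0546 and 0.055 with the deposited CPM at + 1 and + 0.1. Library size alone shifted the all-gene median from 0.06 to 0.14 and the member median from 0.07 to 0.16, so that 40 of 46 lay higher. Relative to all genes it was 0.02 under both scalings. The Psmb8 to Psmb5 difference ran from -0.235 to 0.0629 with a library left out, above 0 without WT b or WT c, and was 0.111 without WT b and XBP1-KO b.

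Small fold changes changed sign, with no call. With a library left out in turn, Psmb6 ran from -0.0196 to 0.158, Psmb7 from -0.0617 to 0.0635, Psmb11 from -0.00899 to 0.256, Psmc1 from -0.0601 to 0.182, Psmd3 from -0.093 to 0.301, Psme1 from -0.0177 to 0.0308 and Psme2 from -0.0234 to 0.129. Without WT b and XBP1-KO b, Psmb6 was -0.00319, Psmb7 -0.0921, Psmc1 -0.0991 and Psme1 -0.0125. Psmb7 was -0.00507 with no filter. Psmc4 was 0.00433 with library size alone, and 0.000727 and 0.000716 with the deposited CPM. The cause was not tested. No paired analysis was possible because the columns carry no replicate number. Where an arm has 2 libraries, they are assumed to vary like the other genotype. Depth limits the lowest genes, Psmb11, Psma8 and Psmd3.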

Other observations

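The members with the widest spread between libraries of 1 genotype were picked after their values were seen. The pooled SD within a genotype, on the log2 CPM scale, had a median of 0.13 over the core genes and 0.14 over the lid and base, against 0.29 over all genes tested. It was 0.50 and 0.33 for Psma8 and Psmd3, which have few counts. It was also 0.38 for Psmg4, 0.35 for Psmd8, 0.34 for Psmd5 and 0.31 for Psmb4, which are genes of the core, the lid and both kinds of chaperone. Psmd8, the lid subunit Rpn12, had 88.9, 156 and 134 CPM in WT a, b and c and 190, 132 and 146 CPM in XBP1-KO a, b and c. Psmb4, Psmd8 and Psmg4 each had their lowest value in WT a and their highest in XBP1-KO a. Adrm1, the ubiquitin receptor Rpn13, which is not among the 46, had 25.1, 50.5 and 35.4 in WT and 48.5, 31.7 and 37.9 CPM in XBP1-KO, with its lowest value also in WT a. Psmd5, a chaperone of the base, had 9.38 to 10.4 in WT and 13.1, 8 and 15 CPM in XBP1-KO a, b and c.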
